A study of Mus musculus with 23 samples.

Results

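Open chromatin was described at 36 interferon response genes, the genes that cells switch on after type I or type II interferon. A region belonged to one of them when the nearest mm10 protein-coding gene body within 50 kb was that gene, after overlapping peaks of all 23 libraries had been merged. By this rule 209 of 155137 regions were assigned to 34 of the 36 genes, and Ifit1 and Isg15 received none.

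The regions were measured by ATAC-seq, in which a transposase inserts sequencing adapters into accessible DNA, in 23 mouse libraries of 11 groups. Blood Ly6C-high monocytes came from untreated C57BL/6J mice (2 libraries). Repopulating liver macrophages (RLMs), cells that refill the liver once Kupffer cells have been ablated, came from Clec4f-cre/Rosa26iDTR mice 24 h (3 libraries) and 48 h (2 libraries) after diphtheria toxin, and Kupffer cells, the resident liver macrophages, came from the same strain given PBS (2 libraries). In this strain the Cre recombinase is driven by Clec4f, a Kupffer cell gene, so that the toxin receptor is expressed in Kupffer cells. Since the blood monocytes came from another strain, strain and cell source cannot be told apart there. TIM4+ Kupffer cells of Nr1h3 flox/flox mice (2 libraries) served as controls for TIM4+ and TIM4- Kupffer cells of Nr1h3 flox/flox Clec4f-cre +/- mice (2 libraries each). The controls lack Cre, so that Cre and the deletion cannot be told apart. For Smad4, titles and strain labels contradict each other. The 2 libraries titled Smad4 knockout carry the strain label Smad4 flox/flox, and the 2 titled control carry Smad4 flox/flox Clec4f-cre +/-. The titles were followed, and every direction given for Smad4 turns round if the strain labels are right. Bone marrow-derived macrophages (BMDMs) of C57BL/6J mice, cultured for 4 days, were left untreated or given DLL4, a Notch ligand, for 24 h (2 libraries each).

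The libraries held 10.4 to 18.4 M tags and 48775 to 104206 deposited peaks, with 15.4% to 54.7% of tags in peaks. Of the 4 macrophage marker promoters that could be examined (Mertk, Cd68, Fcgr1 and Lyz2), at least 3 carried peaks in every library of each group. Kupffer cell markers carried promoter peaks in every library for 2 of 8 genes in blood monocytes, 3 in 48 h RLMs, 7 in Kupffer cells of the toxin strain and 8 in Nr1h3 controls, but also for 6 in untreated BMDMs. Monocyte markers did so for 2 of 5 genes in blood monocytes, 1 in 24 h and in 48 h RLMs, and 0 in every Kupffer cell group. In BMDMs, with or without DLL4, it was 3 of 5, more than in the monocytes themselves. No hepatocyte (0 of 4) or stellate cell (0 of 3) marker promoter carried a peak in any library. Neutrophil marker promoters had peaks in every library of the group for 1 to 3 of 6 genes in cells taken from mice and for 5 in BMDMs. The same count was 0 or 1 of 6 for T and NK cells and 1 to 3 of 5 for dendritic cells. For B cells it was 0 of 3 except for 1 with DLL4, and for liver endothelium 0 of 3 except for 1 in 24 h RLMs and 1 with DLL4. Their part in the results was not tested. A peak over the Nr1h3 gene region remained in all Nr1h3 knockout libraries, and a further one (chr2:91189796-91190011) was called in the 4 knockout libraries (23, 41.4, 20.4 and 23.2) and in no other. The files do not give the deleted part, so these peaks do not check the deletion. Only titles of the repopulation libraries name mice. Where separate animals are not stated, p-values measure the spread between these libraries, which may be technical.

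Interferons signal through JAK kinases. After type I interferon, STAT2 and IRF9 take part in a complex that binds the interferon-stimulated response element (ISRE), while the response to interferon gamma runs through the gamma-activated site (GAS). Among the induced genes are transcription factors that widen the response, sensors of viral nucleic acid, antiviral enzymes, guanylate-binding proteins and the antigen-processing machinery. Kupffer cells line the liver sinusoids and meet microbial products that arrive from the gut.

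Promoter sequences were available for 30 of the 36 genes (36 windows of 300 bases, 250 before to 50 after a start of transcription, RefSeq, GRCm38.p6). Not matched were Zbp1, Parp14, Ifi204, Dhx58, Usp18 and Oas2. The ISRE core, which is GAAA, any 2 bases and GAAA again, searched on both strands with overlapping matches counted, was present in 41.7% of these windows against 3.44% of all 32851 windows. GAS, written TTCNNNGAA, was present in 25% against 8.3%. The ISRE core occurred in 15 genes, namely Bst2, Eif2ak2, Gbp2, Gbp3, Gbp5, Gbp7, Ifi205, Ifih1, Ifit1, Ifit3, Isg15, Oas1a, Oas3, Rsad2 and Stat2. Where a peak lay on the promoter, 17 of 20 ISRE matches and 8 of 11 GAS matches lay inside the merged region. A match is a run of letters and not evidence that a factor was bound. Shown here are 3 promoters with an ISRE core whose peak was higher in Kupffer cells than in blood monocytes (Gbp2, Rsad2, Ifit3), 1 with the core whose peak was lower (Oas3), 1 with 3 overlapping cores and no peak in any library (Isg15), and 2 with GAS and no ISRE core whose peak was lower (Irf1, Psmb8). Each is written 5′ to 3′ on the strand of the gene, with ISRE and GAS matches in capitals.
Gbp2 promoter, chr3:142620413-142620712, plus strand: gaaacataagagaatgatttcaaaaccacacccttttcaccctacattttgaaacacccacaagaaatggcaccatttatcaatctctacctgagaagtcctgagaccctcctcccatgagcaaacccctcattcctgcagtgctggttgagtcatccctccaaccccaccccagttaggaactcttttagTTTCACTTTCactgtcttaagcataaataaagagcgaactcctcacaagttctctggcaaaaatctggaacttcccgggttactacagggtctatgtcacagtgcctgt
Rsad2 promoter, chr12:26456403-26456702, minus strand: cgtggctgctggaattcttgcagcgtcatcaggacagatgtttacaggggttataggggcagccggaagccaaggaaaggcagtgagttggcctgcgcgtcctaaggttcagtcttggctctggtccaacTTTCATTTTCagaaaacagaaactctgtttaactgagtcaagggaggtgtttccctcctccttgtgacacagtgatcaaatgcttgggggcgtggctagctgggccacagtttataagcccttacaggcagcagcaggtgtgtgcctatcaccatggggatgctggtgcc
Ifit3 promoter, chr19:34583279-34583578, plus strand: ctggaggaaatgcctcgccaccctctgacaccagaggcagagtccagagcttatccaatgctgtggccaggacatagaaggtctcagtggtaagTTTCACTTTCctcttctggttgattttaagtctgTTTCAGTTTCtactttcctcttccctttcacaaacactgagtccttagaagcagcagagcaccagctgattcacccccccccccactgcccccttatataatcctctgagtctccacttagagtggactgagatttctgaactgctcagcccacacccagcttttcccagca
Oas3 promoter, chr5:120777610-120777909, minus strand: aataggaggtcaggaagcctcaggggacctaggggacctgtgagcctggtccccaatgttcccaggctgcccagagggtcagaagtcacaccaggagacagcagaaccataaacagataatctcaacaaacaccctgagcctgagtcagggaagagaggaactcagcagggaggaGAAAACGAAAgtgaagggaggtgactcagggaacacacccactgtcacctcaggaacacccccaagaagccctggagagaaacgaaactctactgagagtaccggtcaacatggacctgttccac
Isg15 promoter, chr4:156200769-156201068, minus strand: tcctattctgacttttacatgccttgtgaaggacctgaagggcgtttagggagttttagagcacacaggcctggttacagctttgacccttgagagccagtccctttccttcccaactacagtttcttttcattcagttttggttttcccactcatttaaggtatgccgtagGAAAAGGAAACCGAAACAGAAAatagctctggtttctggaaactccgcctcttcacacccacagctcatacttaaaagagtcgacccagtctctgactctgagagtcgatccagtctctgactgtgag
Irf1 promoter, chr11:53769764-53770063, plus strand: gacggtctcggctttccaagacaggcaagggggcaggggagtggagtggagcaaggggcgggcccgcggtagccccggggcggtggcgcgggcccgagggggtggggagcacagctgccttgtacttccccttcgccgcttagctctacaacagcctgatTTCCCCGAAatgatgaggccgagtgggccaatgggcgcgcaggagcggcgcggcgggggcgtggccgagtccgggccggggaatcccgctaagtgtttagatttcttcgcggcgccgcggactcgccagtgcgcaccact
Psmb8 promoter, chr17:34197945-34198244, plus strand: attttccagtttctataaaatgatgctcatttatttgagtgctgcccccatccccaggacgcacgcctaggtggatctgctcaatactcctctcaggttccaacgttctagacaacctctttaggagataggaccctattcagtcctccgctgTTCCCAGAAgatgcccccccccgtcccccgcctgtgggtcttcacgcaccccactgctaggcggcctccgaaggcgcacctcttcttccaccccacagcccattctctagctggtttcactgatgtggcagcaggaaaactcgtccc

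The calls of 3 of these promoters depended on single libraries. In Kupffer cells the Ifit3 promoter (chr19:34583192-34583651) measured 21.8 and 19.2 against 13.8 and 8.46 in monocytes, a change of 1.25 on the log2 scale (limma, adjusted p = 0.003, and up to 0.15 without Kupffer cell replicate 1 or monocyte replicate 2). The Oas3 promoter (chr5:120777537-120777842) measured 20.9 and 27.8 against 47.2 and 71.9, a change of -0.85 (adjusted p = 0.012, and up to 0.12 without the same libraries). The Irf1 promoter changed by -0.45 (adjusted p = 0.034, and up to 0.61 without Kupffer cell replicate 1 or either monocyte library). In none of these did the groups overlap.

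In Gbp2 the core began 59 bases before the start of transcription, in Rsad2 120, in Oas3 75, and in Isg15 at 78, 72 and 66. All of these except the Isg15 matches lay inside a called region. In Irf1 the GAS began 90 bases before the start and inside the region, while in Psmb8 it began 97 bases before the start and outside it.

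Of the 209 regions, 32 lay on a promoter window of their gene, 93 elsewhere in the gene body and 84 outside it. Peaks in all 23 libraries were found for 65 regions (31.1%, against 17.2% of all 155137 regions), which included 25 of the 32 promoter regions. A single library held 26 regions (12.4%, against 16.7% of all). Irf1 had the most regions (25), followed by Parp14 (13), Gbp5 and Ifit2 (12 each) and Ifih1 (11), while Xaf1 and Eif2ak2 had 1 each. At 31 genes at least 1 region was called in every library. Ifit3, Oas1a and Ifi44 had none that was.

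Both genes without a region have neighbours that the rule credits to other genes. The promoter window of Ifit1, which encodes an antiviral RNA-binding protein, lies under a peak called in all 23 libraries (chr19:34640671-34640962) that overlaps the gene body of Ifit1bl2. This peak measured 24.4 and 44.4 in blood monocytes, 72.1, 59.0 and 60.7 in 24 h RLMs, and 80.6 and 64.2 in Kupffer cells, where values are HOMER normalised tag counts per 10 M tags. Uncentred values of the 4 libraries titled Smad4 (28.5 to 43.4) lay within the monocyte range. However, their median over regions called everywhere was 31.8 to 48.7, against 70.0 and 90.9 in monocytes. These uncentred values therefore cannot be ranked against each other. Every RLM library and both Kupffer cell libraries of the toxin strain were above both monocyte libraries. The change was 1.20 (log2, SE 0.26, adjusted p = 0.00094) at 24 h and 1.49 (SE 0.27, adjusted p = 3.2e-06) in Kupffer cells. The promoter window of Isg15, a ubiquitin-like modifier, held no peak in any library, and the regions nearest to it were assigned to Agrn and Perm1. In Kupffer cells against monocytes the regions assigned to Agrn changed by -1.08 (limma, adjusted p = 9.9e-08) and -0.44 (adjusted p = 0.013). The region assigned to Perm1 had peaks in 10 libraries, all of Kupffer cells. Members of the Ifit, Oas, Gbp and Ifi200 families lie beside near-identical copies, and the placement of reads with several matches is not stated in the labels or headers.

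The number of these regions called per library ran from 98 in a TIM4+ Nr1h3 knockout to 140 in an untreated BMDM library. Per 10000 called regions this was 13.5 to 14.5 in BMDMs and 16.6 to 20.4 in all other libraries. The 65 constant regions held 18.4 ± 0.643 of every 10000 units of signal in the regions called everywhere in blood monocytes (SD, n = 2), 17.9 ± 0.594 in 24 h RLMs (n = 3), 19.8 ± 0.0778 in 48 h RLMs (n = 2) and 18.3 ± 0.813 in Kupffer cells of the toxin strain (n = 2). It was 21.7 ± 0.813 in Nr1h3 controls, 21.7 ± 0.516 in TIM4+ and 22.6 ± 0.7 in TIM4- knockouts, 21.4 ± 0.41 in libraries titled Smad4 knockout and 21.2 ± 0.445 in those titled control, and 17.8 ± 0.205 in untreated and 16.8 ± 0.643 in DLL4-treated BMDMs (n = 2 each). The group means of the Nr1h3 and Smad4 experiments were above those of the repopulation experiment and of BMDMs. Experiment and strain cannot be told apart there. In bulk ATAC-seq a change in the share of cells with an open region and a change in its openness per cell cannot be told apart.

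**Figure D1:**
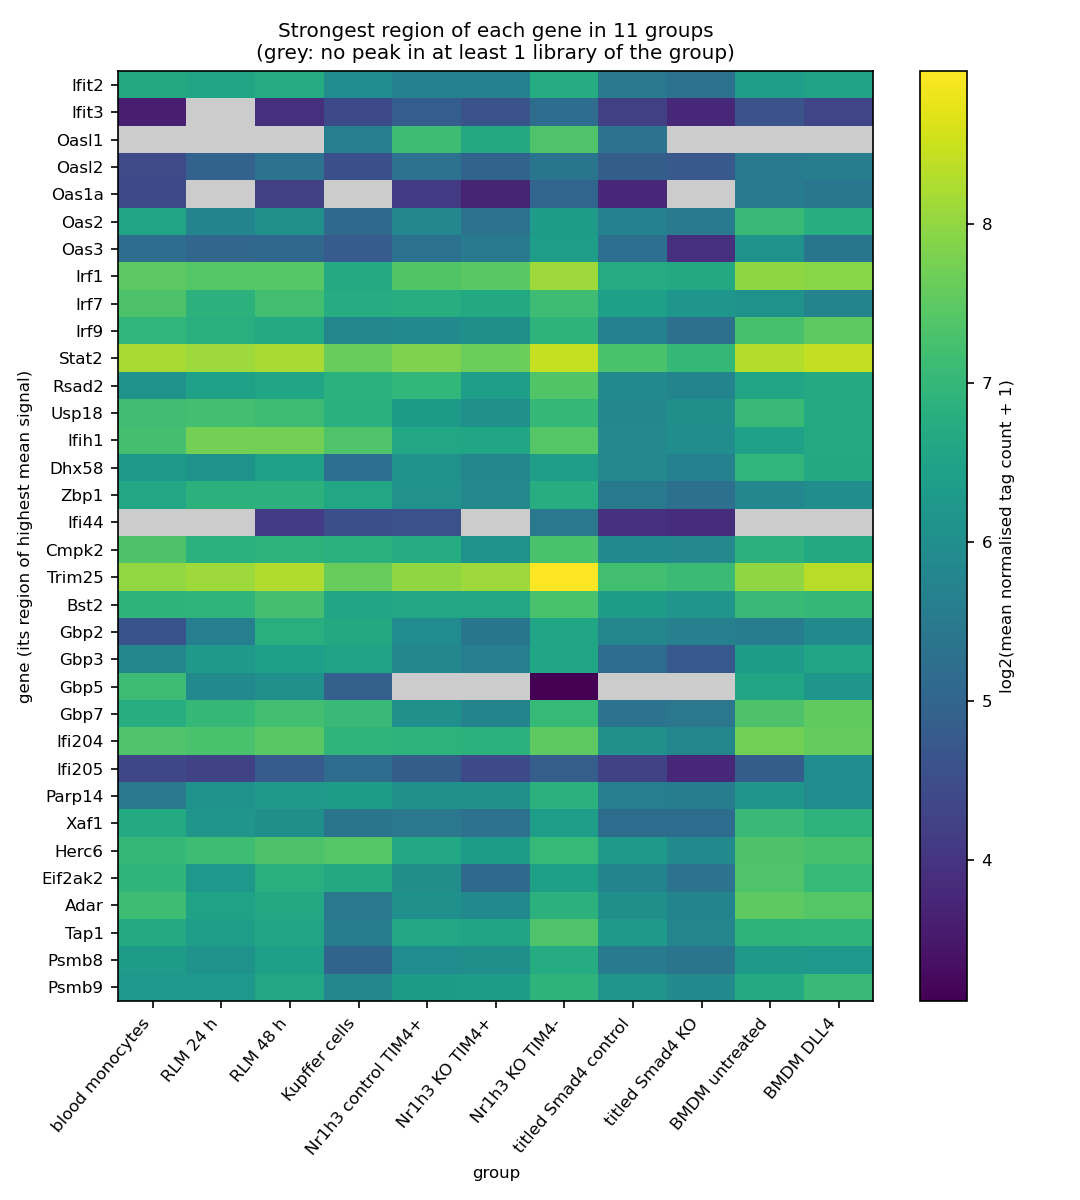
Mean signal of the strongest region of each of 34 interferon response genes (rows) in 11 groups (columns), as log2 of the mean normalised tag count plus 1, in colour. Grey cells are groups in which at least 1 library had no peak, as for Oasl1 in monocytes, RLMs and BMDMs. TIM4- Nr1h3 knockouts look bright throughout. Values are not centred here, and the median region of these knockouts was higher by 0.48 than in controls. Relative to each library's median, the median of the 65 constant regions was 0.22 and 0.24 in these knockouts. In controls it was 0.05 and 0.09. The part of the scale in the brightness was not tested.

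The strongest region of each gene, the one with the highest mean over libraries, gave the pattern across groups shown in the heat map of strongest regions. Among the transcription factors, the Irf1 promoter (chr11:53769737-53770013) measured 162.0 and 196.6 in blood monocytes and 75.8 and 129.4 in Kupffer cells. The promoter of Irf9 (chr14:55603938-55604181), the DNA-contacting subunit of the type I complex, measured 105.0 and 141.0 against 53.1 and 55.6. Both Kupffer cell libraries lay below both monocyte libraries at each of these promoters. Irf9 was also at 122.5 and 116.6 in TIM4- Nr1h3 knockouts against 63.6 and 54.1 in Nr1h3 controls, and at 171.4 and 130.5 in untreated BMDMs. Irf7, which amplifies type I interferon production, and Stat2, the partner of IRF9, both had a promoter peak in all libraries. The Stat2 promoter varied least, with group means 0.47 apart at most on the centred log2 scale.

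Among the sensors, Ifih1 encodes the RNA sensor MDA5 and Dhx58 its regulator LGP2. The Ifih1 promoter (chr2:62646032-62646332), with an ISRE core, was highest in 24 h RLMs (240.6, 215.2 and 184.0) and lowest, after centring, in untreated BMDMs (101.4 and 72.7). Dhx58 was lowest in Kupffer cells at its strongest region (35.1 and 39.3, against 70.8 and 81.8 in monocytes). Zbp1, a sensor of Z-form nucleic acid, reached 127.3, 132.6 and 85.4 in 24 h RLMs. The Ifi204 region in the gene body, at a member of the DNA-binding PYHIN family, differed by 0.67 between its highest and lowest group.

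Oasl1, an OAS-like protein that restrains translation of Irf7, stood apart by its intragenic region at chr5:114926823-114927085. No peak was called there in blood monocytes, RLMs or BMDMs (0 of 11 libraries), whereas 11 of 12 Kupffer cell libraries had one. The values were 43.6 and 53.7 in Kupffer cells of the toxin strain, 163.7 and 114.9 in Nr1h3 controls, 77.2 and 118.8 in TIM4+ and 146.1 and 177.6 in TIM4- knockouts. Libraries titled Smad4 control had 37.5 and 41.5, and of those titled knockout 1 had 29.2 and 1 had no peak. A second Oasl1 region (chr5:114928244-114928550) was called in all 12 Kupffer cell libraries and in none of the other 11. The region 18229 bp from Gbp5 (chr3:142478436-142478705) went largely the other way. It measured 114.8 and 161.4 in monocytes, 110.6 and 73.6 in untreated BMDMs, and 31.3 and 26.8 in Kupffer cells of the toxin strain. In TIM4- knockouts it was at 7.66 and 7.63, and in 1 library titled Smad4 control at 8.75. There was no peak in Nr1h3 controls, TIM4+ knockouts or libraries titled Smad4 knockout. Ifi44, a gene of the antiviral state with few strong regions, had its strongest region (chr3:151746054-151746394) in TIM4- knockouts (46.0 and 39.2) and no peak there in blood monocytes.

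For the antigen-processing genes, the peptide transporter subunit Tap1 and the immunoproteasome subunits Psmb8 and Psmb9, Kupffer cells of the toxin strain were the lowest of the 11 groups after centring. Psmb8 measured 29.4 and 32.6 there and 74.9 and 86.7 in monocytes. The same holds for the promoters of Irf1, Irf9, Stat2 and Adar, an RNA-editing enzyme, for the strongest regions of Oas2 and Dhx58, and for Xaf1, a pro-apoptotic factor. Gbp2, Gbp3, Gbp7 and Herc6 had their highest group there. This order is a description of group means with no test. Control groups of the other experiments did not all share the contrast with monocytes. After centring, Psmb8 was at 0.09 in Nr1h3 controls and 0.05 in libraries titled Smad4 control, against 0.01 in monocytes. Gbp7 was at 0.18 and -0.14, against 0.39. Irf9, in the same order, was at 0.04 and 0.22, against 0.6, and Gbp2 at 0.01 and 0.33, against -1.76.

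The widest comparison was that of Kupffer cells of the toxin strain with blood monocytes, the cells that refill the niche. Herc6, Ifit2, Gbp2, Gbp5 and Rsad2 regions were higher in Kupffer cells, by up to 3.80 on the log2 scale, and Parp14, Gbp5, Zbp1, Adar, Dhx58 and antigen-processing regions were lower, by up to 1.82. Of 85 regions tested at 32 genes, 25 were higher and 24 lower (57.6%), where 51.0% of all 37850 regions tested passed the same threshold, an adjusted p under 0.05 in limma (25.7% higher and 25.3% lower). Their median change was -0.03. Without centring on each library's median, which differed by -0.40 between the groups, 10 were higher and 27 lower (11.8% and 31.8%, against 10.0% and 31.2% of all). At 5 genes (Gbp2, Gbp5, Ifit2, Irf1 and Parp14) regions changed in both directions. The strongest Parp14 region, in the gene body, was higher by 1.28 (limma, adjusted p = 1.4e-05), and another Parp14 region by 0.86 (adjusted p = 0.0012). Of the 49 called regions, 45 had library values that did not overlap between the groups (91.8%, against 87.8% of all called regions). Overlap was judged throughout on deposited values, which are not centred, whereas the changes and main calls use centred values.

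The most changed was the region 9076 bp from Herc6 (chr6:57571627-57571916), a gene for the main ISG15 ligase of the mouse. It measured 16.3 and 12 in blood monocytes, 54.3, 32.7 and 39.8 in 24 h RLMs, 61.9 and 68.9 in 48 h RLMs, and 149.8 and 167.8 in Kupffer cells. The groups did not overlap, and each later group was above all libraries of the earlier one. The change between monocytes and Kupffer cells was 3.80 (SE 0.27, adjusted p = 1.3e-19), and a second, intragenic region of Herc6 was higher by 1.65 (SE 0.24, adjusted p = 2.5e-08).

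An intragenic region of Ifit2 (chr19:34570131-34570420), whose product binds viral RNA, went from 10.6 and 17.6 in monocytes to 71.1, 55.4 and 33.2 at 24 h and 81.5 and 88.2 in Kupffer cells. All later libraries lay above the monocytes, and the change in Kupffer cells was 2.94 (SE 0.30, adjusted p = 4.8e-13). The Gbp2 promoter (chr3:142620476-142620831) belongs to a GTPase that acts on vacuoles of intracellular pathogens. It measured 17.1 and 30.3 in monocytes, 53.4, 56.3 and 37.0 at 24 h, 121.1 and 99.7 at 48 h, and 87.2 and 114.1 in Kupffer cells. The monocyte libraries were the lowest of all, 48 h and Kupffer cell libraries overlapped, and Kupffer cells were higher than monocytes by 2.47 (SE 0.27, adjusted p = 2.6e-12).

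Gbp5, a GTPase that promotes inflammasome assembly, had regions in both directions. An intragenic region (chr3:142521346-142521681) had 9.77 and 9.16 in monocytes, 46.2 and 65.3 at 48 h, and 21.8 and 29.7 in Kupffer cells, which was 1.73 higher than in monocytes (SE 0.35, adjusted p = 3.3e-05). The upstream region described above, at 114.8 and 161.4 in monocytes, was lower by 1.80 in Kupffer cells (adjusted p = 1.6e-09). At Rsad2, which encodes the antiviral enzyme viperin, the promoter peak with an ISRE core (chr12:26456356-26456717) went from 47.2 and 67.0 to 137.4 and 117.0, a change of 1.55 (SE 0.21, adjusted p = 4.2e-09). Parp14, an ADP-ribosyltransferase, had a region 2980 bp from the gene body (chr16:35874498-35874780) that was lower by 1.82 (52.1 and 52.2 against 9.48 and 11.5, SE 0.33, adjusted p = 4.6e-06). In these 8 regions no library of one group reached the range of the other, and all stayed past the threshold when any 1 library was left out.

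**Figure D2:**
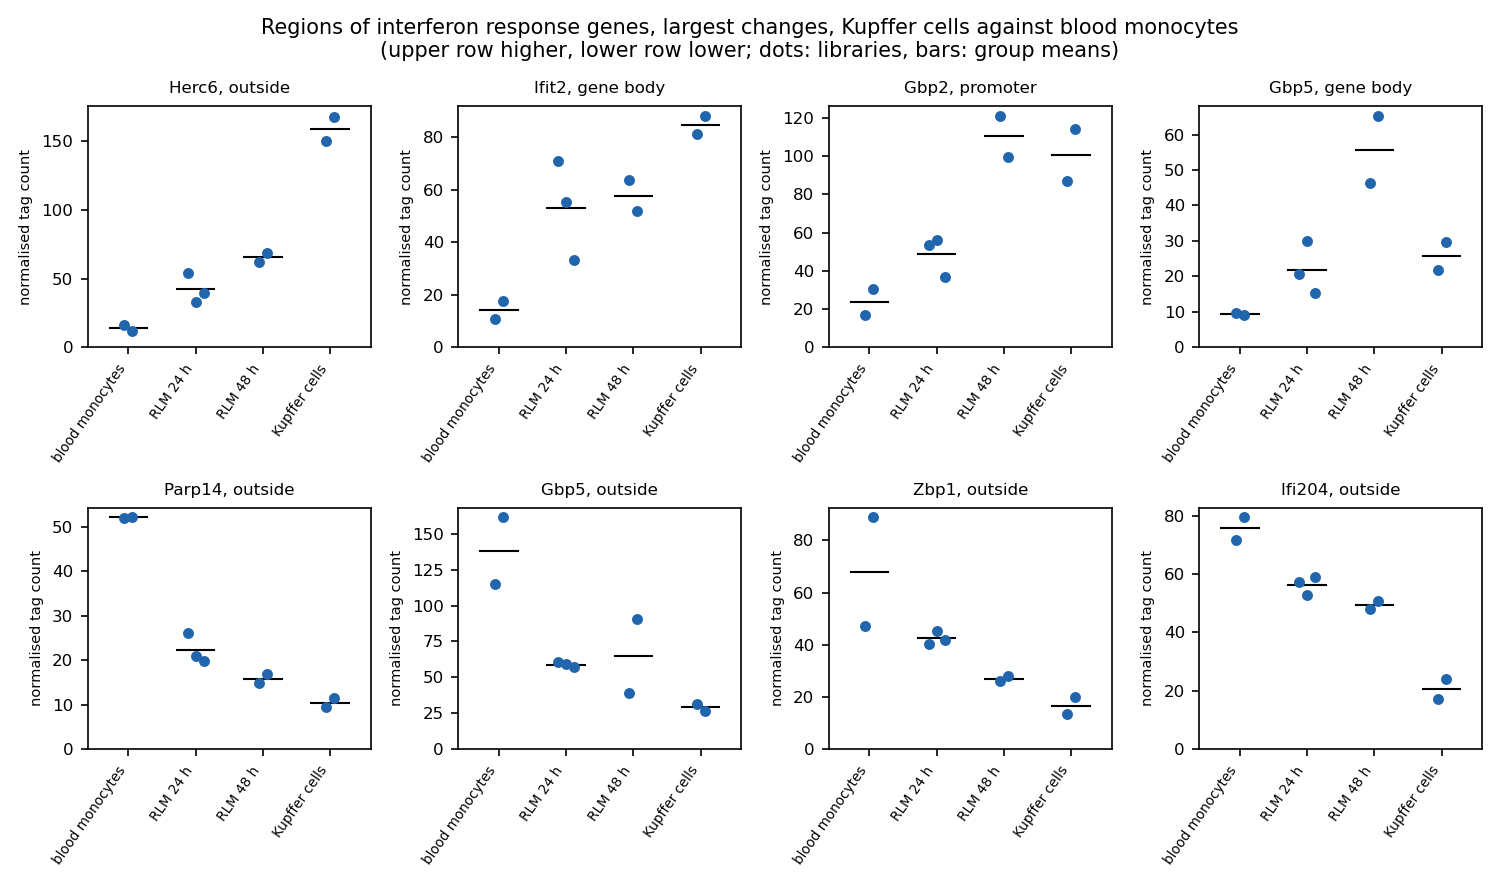
Normalised tag counts (vertical axes, linear from 0) in blood monocytes, RLMs at 24 h and 48 h and Kupffer cells, for the region of largest change of 4 genes higher (upper row) and 4 genes lower (lower row) in Kupffer cells than in monocytes. Dots are libraries and bars are group means. The Herc6 region runs from 12 in a monocyte library to 167.8 in a Kupffer cell library.

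Promoter regions were split by the ISRE core. Of 12 tested promoter regions with the core, 7 were higher and 1 (Oas3) lower in Kupffer cells, with a median of 0.70. Those higher belonged to Gbp2, Rsad2, Gbp5, Ifit3, Ifi205, Gbp7 and Ifih1, and without centring only Gbp2, Rsad2 and Gbp5 remained, with 3 higher, 1 lower and a median of 0.31. Of 16 without the core, 3 were higher (Oasl1, Gbp3 and Herc6) and 7 lower (regions of Adar, Psmb8, Xaf1, Irf9, Tap1 and 2 of Irf1), with a median of -0.40. Without centring these were 1 higher and 7 lower, with a median of -0.79. The split follows promoter windows, not genes or peaks. The Gbp3 region here lies at another start of transcription than its cores, and the Stat2 core lay outside the called region. Among promoter regions of all genes, 31.8% of 258 with the core were higher and 21.3% lower (median 0.17), against 22.5% and 30.3% of 7851 without it (median -0.10). These shares are a description, with no test of the difference between the sets, and genes are not independent replicates. The median was 0.07 in 25 gene body regions (6 higher, 6 lower) and -0.09 in 32 regions outside genes (9 higher, 10 lower), where regions of the 6 genes without a promoter sequence are included.

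**Figure D3:**
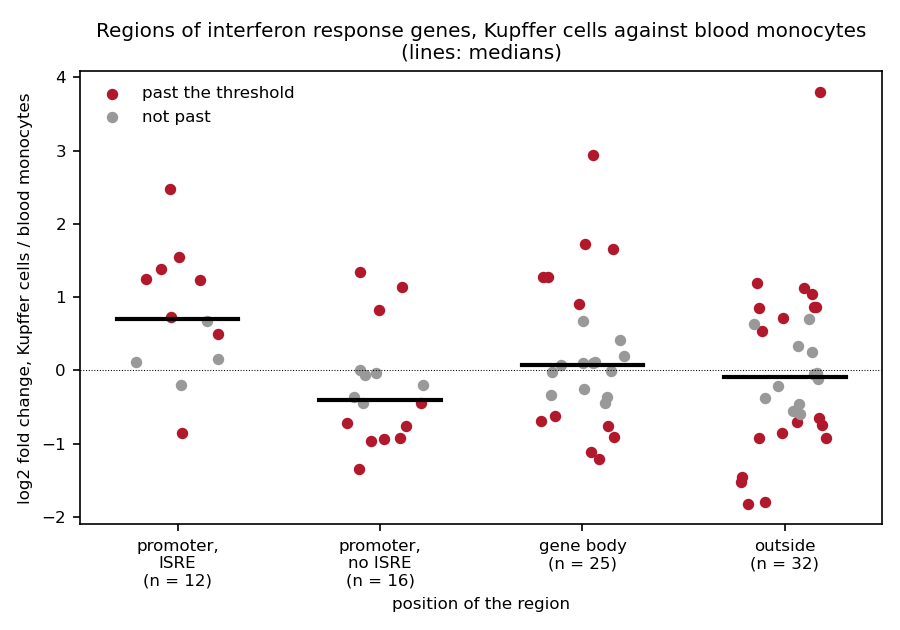
Log2 fold change of Kupffer cells over blood monocytes (vertical axis) for the 85 tested regions, by position: promoters with an ISRE core, promoters without it, gene bodies and outside genes. Red points passed the threshold, grey ones did not, and lines are medians. The medians are 0.70, -0.40, 0.07 and -0.09 in this order after centring, and those of the promoters are 0.31 and -0.79 without it.

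Some regions had peaks in all libraries of 1 group and none in the other. There were 17 of these for Kupffer cells (10.4% of 163 regions with a peak in either group, against 12.8% of all) and 14 for monocytes (8.59%, against 15.9%). Those of Kupffer cells included 3 at Irf1 and 2 each at Ifih1, Ifi44, Oasl1 and Ifit2, and those of monocytes 2 each at Herc6 and Parp14. An Irf1 region 18459 bp beyond the gene, at chr11:53796833-53797098, had no peak in monocytes, 39.8 and 51.8 in Kupffer cells and 93.7 and 77.9 in Nr1h3 controls. A region without a called peak need not be closed.

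Between blood monocytes and 24 h RLMs, the first step of repopulation, 13 of 88 tested regions were higher and 3 lower in RLMs (18.2%, against 26.0% of all regions, 16.7% higher and 9.33% lower). The comparison shares its monocyte libraries with the preceding one. Uncentred, where the median region differed by -0.18, 5 were higher and 6 lower (5.68% and 6.82%, against 4.58% and 12.8% of all). The same Ifit2 region was higher by 2.08 (SE 0.32, adjusted p = 1.6e-05), and the Herc6 regions by 1.76 (SE 0.33, adjusted p = 0.00019) and 1.14 (SE 0.25, adjusted p = 0.0011). The groups did not overlap at these 3 regions, which were called without any 1 library. Of the 16 called regions 10 did not overlap (62.5%, against 75.6% of all called regions). The Gbp2 promoter was higher by 1.31 (adjusted p = 0.0013, and 0.05 without monocyte replicate 1) and the intragenic Gbp5 region by 1.35 (adjusted p = 0.0048, and 0.12 without monocyte replicate 2). The Gbp5 promoter was higher by 0.96 (adjusted p = 0.027, and up to 0.22 without 24 h replicate 3 or either monocyte library). Dhx58 fell at an intragenic region (chr11:100701379-100701652) from 78.1 and 88.1 to 27.1, 37.2 and 41.7, a change of -0.96 (SE 0.27, adjusted p = 0.0082). The groups did not overlap there, yet the call was lost without monocyte replicate 1 or 2, with a highest adjusted p of 0.14. The Parp14 region outside the gene had a change of -0.93 (SE 0.30, adjusted p = 0.022), and lost its call without monocyte replicate 1 or 2 or 24 h replicate 2 (highest adjusted p = 0.24). The remaining lower region was the one 18229 bp from Gbp5, with a change of -0.93 (limma, adjusted p = 0.00091). It kept its call in all 7 other settings run, and its change was -0.99 to -0.90 with 1 library left out. Peaks in all 24 h and no monocyte libraries were found for 2 regions, at Irf1 and Trim25 (1.32% of 151, against 3.02% of all), and the reverse for 2, at Gbp3 and Parp14 (against 4.49%).

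Between 24 h and 48 h few regions changed. Of 89 tested, 2 were higher and 1 lower (3.37%, against 5.44% of all, 1.92% higher and 3.53% lower), and 2 and 0 without centring (2.25% and 0%, against 2.28% and 0.522% of all). The Gbp2 promoter was higher at 48 h by 1.01 (SE 0.23, adjusted p = 0.011) and the intragenic Gbp5 region by 1.17 (SE 0.32, adjusted p = 0.029). At both, every 48 h library was above every 24 h library. Of all called regions in this comparison 94.5% did not overlap. An intragenic Ifih1 region (chr2:62630531-62630812) fell from 47.7, 40.0 and 29.4 to 19.2 and 22.7, a change of -1.01 (SE 0.30, adjusted p = 0.049). Gbp2 lost its call without 48 h replicate 1 or 2 (highest adjusted p = 0.22), Gbp5 without these or 24 h replicate 1 (0.35), and Ifih1 without any library but 24 h replicate 3 (0.24). Peaks in all 48 h and no 24 h libraries were found for 6 regions (3.85% of 156, against 5.09% of all), 1 each at Gbp5, Oas1a, Herc6, Cmpk2, Psmb9 and Ifit2. The reverse was found for 0 (against 0.609%).

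Compared with 48 h RLMs, Kupffer cells had 10 of 95 regions higher and 14 lower (25.3%, against 26.4% of all, 13.7% higher and 12.6% lower). The Kupffer cell libraries are the ones compared with monocytes. Uncentred, where the median region differed by -0.30, 1 was higher and 30 lower (1.05% and 31.6%, against 6.32% and 25.3% of all). The Herc6 region outside the gene rose again, by 1.55 (SE 0.19, adjusted p = 3.8e-09). The Psmb8 promoter fell from 84.5 and 85.1 to 29.4 and 32.6, a change of -1.14 (SE 0.25, adjusted p = 0.00039), and the Adar promoter from 91.5 and 107.1 to 32.2 and 52.7, a change of -0.96 (SE 0.23, adjusted p = 0.0012). Neither pair of groups overlapped, and these 3 calls held without any 1 library. Of the 24 called regions 22 did not overlap (91.7%, against 96.1% of all called regions). A region 7577 bp from Psmb9 (chr17:34174069-34174453) changed by -1.17 (68.9 and 59.4 against 13.3 and 38.3, adjusted p = 0.0029), with the call lost without Kupffer cell replicate 1 or 48 h replicate 1 (highest adjusted p = 0.27). Intragenic regions of Ifih1 (1.06, adjusted p = 0.017) and Irf1 (0.97, adjusted p = 0.012) were higher, and a region 42279 bp from Ifi204 was lower (-0.96, adjusted p = 0.014). The calls of Ifih1 and Ifi204 ended without Kupffer cell replicate 1 (adjusted p up to 0.19 and 0.11), those of Ifih1, Irf1 (0.17) and Ifi204 without 48 h replicate 2, and that of Ifi204 also without 48 h replicate 1. A further Rsad2 region within the gene rose by 0.95 (adjusted p = 0.032) and was lost when any 1 of the 4 libraries was left out (highest adjusted p = 0.17). Both Oasl1 regions described above had peaks in Kupffer cells only in this comparison, as 2 of 5 such regions (3.01% of 166, against 4.53% of all), and 10 had peaks in 48 h RLMs only (6.02%, against 12.8%), among them 2 each at Cmpk2 and Parp14.

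In TIM4+ cells with the deletion of Nr1h3, which encodes the lipid-sensing nuclear receptor LXR-alpha, most regions did not pass the threshold. Of 90 tested, 4 were higher and 1 lower (5.56%, against 8.78% of all, 4.86% higher and 3.91% lower), and 0 and 1 without centring, where the median region differed by -0.23, or 0 and 2 with quantile normalisation (against 0.149% and 3.49% of all without centring, and 2.79% and 4.45% with quantile normalisation). After centring the lower region was the second Oasl1 region, at 50.4 and 56.0 in knockouts and 127.2 and 76.6 in controls, with no overlap and a change of -0.58 (SE 0.18, adjusted p = 0.023, and 0.066 without centring). Without centring the lower region was one in the gene body of Usp18 (chr6:121251212-121251552), a protease that removes ISG15, with a change of -1.20 (adjusted p = 0.031). The higher ones were 2 at Irf1 and 2 at Trim25, a ubiquitin ligase for the sensor RIG-I, each by 0.42 after centring, with adjusted p from 0.024 to 0.044. Deposited values of these 4 regions overlapped between the groups. All 5 calls depended on single libraries. That of Oasl1 ended without knockout replicate 2 (adjusted p up to 0.49) or control replicate 1, those of Irf1 without knockout replicate 1 or either control (up to 0.45), and those of Trim25 without either knockout or control replicate 2 (up to 0.44), 1 of them also without control replicate 1. Controls alone had 10 regions with peaks (7.14% of 140, against 7.69% of all), 2 of them at Ifih1, and knockouts alone 1, at Trim25 (against 1.06%). The knockouts had 48775 and 53972 peaks, fewer than the controls.

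TIM4- knockout cells differed from the same controls in both TIM4 and genotype. Of 104 tested regions 10 were higher and 3 lower (12.5%, against 13.7% of all, 7.03% higher and 6.68% lower). Uncentred values, in which the median region was higher by 0.48, gave 39 higher and 0 lower (37.5% and 0%, against 26.3% and 2.51% of all), and quantile normalisation 4 and 2 (3.85% and 1.92%, against 3.63% and 5.5% of all). An intragenic Ifi44 region (chr3:151748526-151748843) measured 37.7 and 27.8 against 12.1 and 7.26, a change of 1.28 (SE 0.31, adjusted p = 0.0011). An intragenic region of Oas3 (chr5:120775340-120776021), one of the enzymes that make the second messenger of RNase L, measured 83.1 and 82.8 against 46.3 and 30.4, a change of 0.72 (SE 0.20, adjusted p = 0.0061). The groups did not overlap at either. Of the 13 called regions 11 did not overlap (84.6%, against 90.4% of all called regions). The promoters of Ifit2 (0.66, adjusted p = 0.0058) and Irf9 (0.61, adjusted p = 0.0075), and a region 3949 bp from Trim25 (0.59, adjusted p = 0.00079), were higher too. The Gbp7 promoter measured 129.0 and 129.6 against 67.7 and 62.1, a change of 0.58 (adjusted p = 0.0093). An intragenic region of Oas1a had a change of -1.20 (9.43 and 7.63 against 21.4 and 11.2, adjusted p = 0.007), and an Irf1 region 40315 bp away changed by -0.63 (adjusted p = 0.045) with overlapping values. Its call was lost with the replicate block (adjusted p = 0.054), with quantile normalisation (0.072) and without centring (0.52). The second Oasl1 region was at -0.53 (adjusted p = 0.021, and 0.71 without centring), with deposited values of 99.0 and 82.8 that overlap those of the controls.

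Leaving out 1 library ended each of these 9 calls at least once. Ifi44 (adjusted p = 0.072) was lost without knockout replicate 1, Ifit2 (0.09) without knockout replicate 2, Trim25 (0.26) without control replicate 2, and Irf9 without knockout replicate 1 or control replicate 1 (up to 0.072). Oas1a (up to 0.16) and Oasl1 (up to 0.37) were lost without knockout replicate 2 or control replicate 1. Gbp7 (up to 0.13) was lost without any library but control replicate 2, Oas3 (up to 0.13) without any but control replicate 1, and Irf1 (up to 0.54) without any but knockout replicate 2. TIM4- knockouts alone had peaks in 8 regions (5.16% of 155, against 6.60% of all) and controls alone in 2, at Gbp5 and Oasl1 (against 3.50%).

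Within the knockout mice, TIM4- and TIM4+ cells differed in 1 of 91 tested regions (1.10%, against 2.11% of all, 0.607% higher and 1.50% lower). It lies 42264 bp from Irf1 (chr11:53820638-53821036), at 58.9 and 73.0 in TIM4- against 17.2 and 25.3 in TIM4+ cells, without overlap, a change of 0.86 (SE 0.24, adjusted p = 0.033, and up to 0.46 without either TIM4- library or TIM4+ replicate 1). Of all called regions in this comparison 69.1% did not overlap. Uncentred, where the median region was 0.72 higher in TIM4- cells, 70 were higher and 0 lower (76.9% and 0%, against 67.7% and 0.351% of all), and quantile normalisation left 0 (against 0.332% higher and 0.751% lower). TIM4- cells alone had peaks in 18 regions (12.3% of 146, against 10.9% of all), with 3 each at Ifih1 and Ifi44 and 2 each at Zbp1 and Irf1, and TIM4+ cells in 1, at Ifit2 (against 0.559%). The TIM4- libraries had 68613 and 68757 peaks against 48775 and 53972, and the part of this in the counts was not tested. These comparisons share libraries among themselves.

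Smad4 carries signals of the TGF-beta and BMP family. Of 90 regions, 0 were higher and 1 lower in the libraries titled knockout (1.11%, against 3.07% of all, 1.57% higher and 1.50% lower). It was the Oas3 region that was higher in TIM4- Nr1h3 knockouts, at 12.8 and 14.9 in libraries titled knockout and 32.7 and 41.5 in those titled control. The groups did not overlap, and the change was -1.02 (SE 0.27, adjusted p = 0.014, and up to 0.19 without titled knockout replicate 2 or either titled control). Of all called regions in this comparison 88.6% did not overlap. Peaks in all libraries titled control and none titled knockout were found in 7 regions, 2 of them at Irf1 (5.0% of 140, against 6.97% of all), and the reverse in 2, at Irf1 and Psmb9 (against 1.24%).

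With DLL4, 4 of 106 regions passed the threshold in BMDMs, 2 in each direction (3.77%, against 3.88% of all, 2.36% higher and 1.52% lower), and 2 and 1 with quantile normalisation (1.89% and 0.943%, against 0.88% and 0.715% of all). The promoter of Ifi205 (chr1:174031675-174032012), another PYHIN gene with 2 ISRE cores, measured 31.9 and 23.6 untreated and 58.1 and 63.6 with DLL4, a change of 1.08 (SE 0.23, adjusted p = 0.00097). A region 16476 bp from Irf1 (chr11:53794850-53795176) went from 132.1 and 132.2 to 233.3 and 199.1, a change of 0.67 (SE 0.13, adjusted p = 0.00019). Oas3 was lower at its promoter (65.1 and 55.2 against 42.1 and 24.6 with DLL4, a change of -0.91, adjusted p = 0.0072) and at the intragenic region (70.6 and 65.7 against 44.3 and 36.9, a change of -0.77, adjusted p = 0.014). No library of one group reached the range of the other at these 4 regions. The same held for 99.9% of all 2793 called regions, so it does not set these 4 apart. Ifi205 lost its call without untreated replicate 1 (adjusted p = 0.072), Irf1 without untreated replicate 1 or DLL4 replicate 1 (up to 0.13), and both Oas3 regions without DLL4 replicate 2 or either untreated library (up to 0.32). Peaks with DLL4 alone were found in 3 regions and without it alone in 2 (1.88% and 1.25% of 160, against 2.10% and 2.00% of all).

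**Figure D4:**
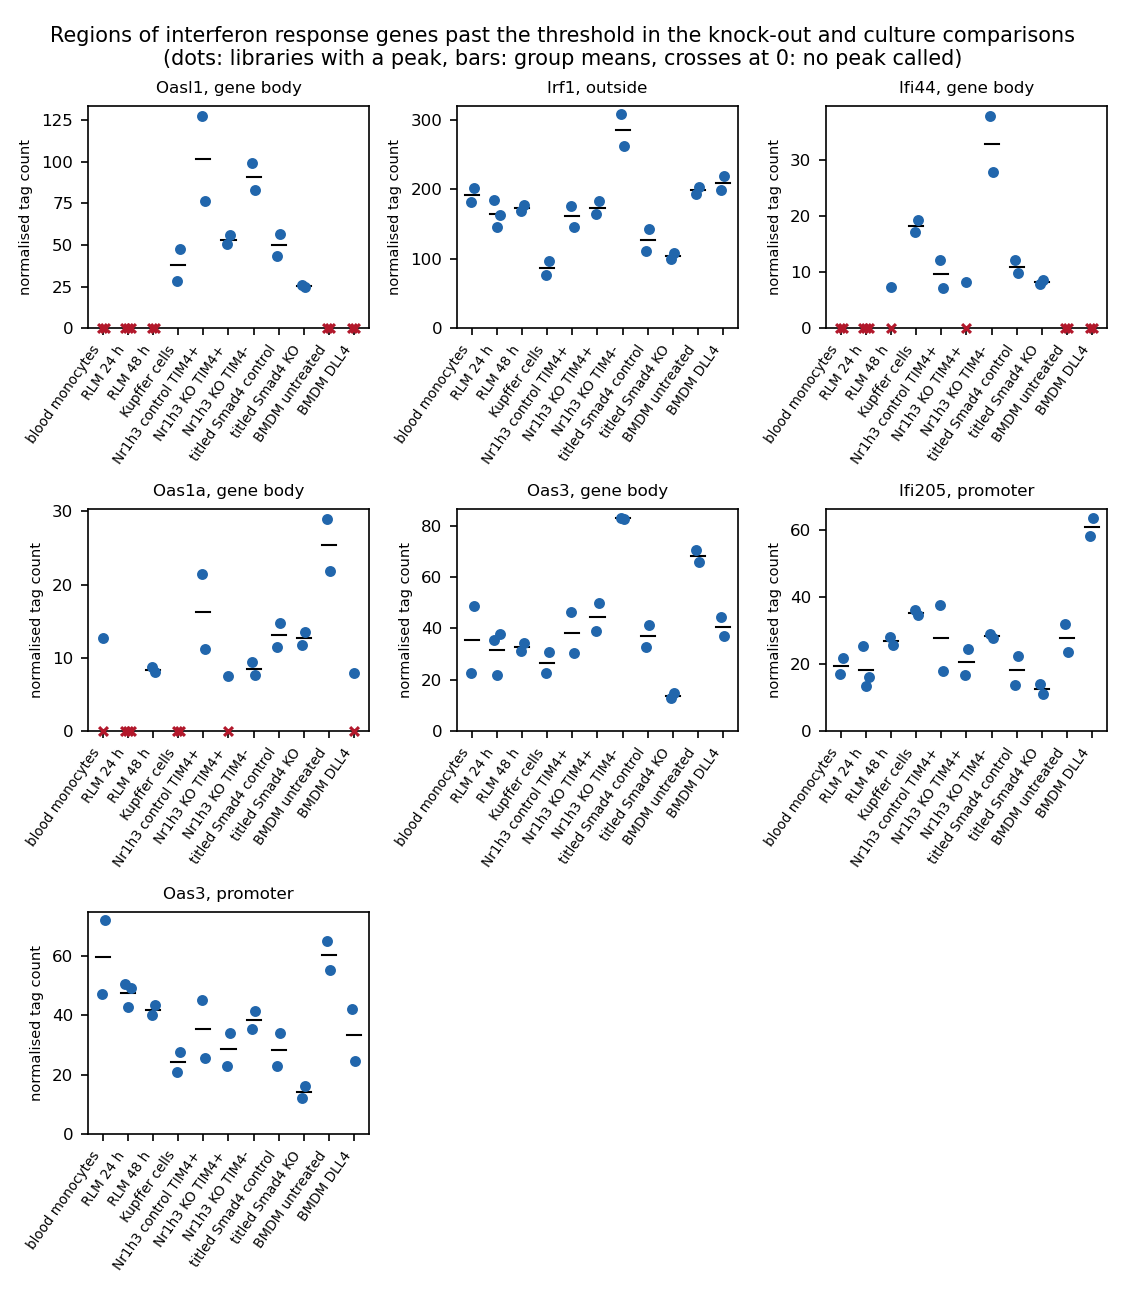
Normalised tag counts (vertical axes, linear from 0) in all 11 groups for the 7 regions that were among the 2 largest changes past the threshold in the comparisons of Nr1h3 knockouts with controls, of the libraries titled Smad4 and of DLL4. Dots are libraries with a peak, bars are means of groups with a peak in every library, and crosses at 0 mark libraries with no called peak. The Oasl1 region has peaks only in Kupffer cell libraries. Values are not centred here, and on this scale the intragenic Oas3 region is lowest in the libraries titled Smad4 knockout. After centring it was at -1.29 there, -1.28 with DLL4, -1.25 in 48 h RLMs and -1.23 in monocytes.

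Lists of other interferon pathway genes, chosen like the members with earlier results known, were read the same way. Against monocytes 25.7% of all regions were higher and 25.3% lower in Kupffer cells. Of the 11 interferon genes themselves, 6 had a region that could be tested. Of their 11 regions, 4 were higher and 3 lower in Kupffer cells than in monocytes (36.4% and 27.3%, median 0.09). A region 33853 bp from Ifng, the gene of interferon gamma, was lower by a change of -2.32 (154.0 ± 39.8 in monocytes and 22.4 ± 1.84 in Kupffer cells, SD, n = 2 each, adjusted p = 1.2e-12) and was higher by 2.13 in TIM4- knockouts than in controls (61.5 ± 2.19 against 9.82 ± 0.82, n = 2 each, adjusted p = 2.4e-11). T and NK cell marker regions were called in the same comparisons. Against monocytes 3 of 13 were higher and 2 lower in Kupffer cells, with a median of 0.18. Of the lower ones, Cd3d was at 134.0 ± 7.78 in monocytes and 17.2 ± 9.62 in Kupffer cells (a change of -2.61). In TIM4- knockouts 2 of 13 were higher and 0 lower (against 7.03% and 6.68% of all), with a median of -0.1. These were Klrb1c by 1.57 (40.0 ± 5.02 against 9.49 ± 1.29) and Cd3d by 0.83 (66.9 ± 4.53 against 28.1 ± 5.23). No peak lay on the Cd3d promoter window in any library. The part of these marker regions in the Ifng values was not tested. A region 14606 bp from Ifnb1 was higher by 1.60 in Kupffer cells (adjusted p = 9e-10). Of 121 regions of receptor and JAK-STAT genes, 19 were higher and 33 lower in Kupffer cells than in monocytes (15.7% and 27.3%, median -0.08). There a region near Irf8, a myeloid transcription factor, was higher by 2.90 (18.3 ± 3.96 against 109.0 ± 25.1, n = 2 each, adjusted p = 1.8e-14), and a region 5315 bp from Ifnar2, a type I receptor chain, changed by -2.65 (adjusted p = 3.2e-11). Irf8 was already 2.93 higher at 24 h (adjusted p = 2.6e-09).

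Of 59 regions of nucleic acid sensing genes, 15 were higher and 13 lower in Kupffer cells than in monocytes (25.4% and 22%, median 0.01), led by Tlr3, the receptor for double-stranded RNA, with 2.07 (adjusted p = 7.7e-08). Other interferon-stimulated genes had 31 of 99 regions higher and 24 lower (31.3% and 24.2%, median 0.22), among them Rtp4 (2.47, adjusted p = 5.8e-09) and the chemokine gene Cxcl10 (2.08, adjusted p = 2e-11). Of 17 regions at further interferon-gamma GTPases 4 were higher and 5 lower (23.5% and 29.4%, median 0.03). MHC class I and antigen-processing genes outside the 36 had 4 of 26 higher and 8 lower against monocytes (15.4% and 30.8%, median 0.02). In Kupffer cells against 48 h RLMs they had 0 of 27 higher and 10 lower (0% and 37.0%, against 13.7% and 12.6% of all, median -0.38). In 24 h RLMs against monocytes they had 8 of 27 higher and 2 lower (29.6% and 7.41%, against 16.7% and 9.33% of all, median 0.42), and in TIM4+ Nr1h3 knockouts against controls 6 of 23 higher and 0 lower (26.1% and 0%, against 4.86% and 3.91% of all, median 0.32). Promoter regions of all genes without the ISRE core differed from all regions in these comparisons. In 24 h RLMs against monocytes 26.6% of them were higher and 6.96% lower. In Kupffer cells against 48 h RLMs these shares were 12.1% and 18.3%, and in TIM4+ knockouts 6.67% and 0.872%. The part of promoters in the MHC class I list was not tested. The pathway lists were not tested with libraries left out, and their counts are over regions, not over independent genes.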

How the data were processed

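The tools named in the submitters' processing notes are Bowtie2 and HOMER, and the build is mm10, with versions not stated. Per the file headers, the authors called peaks in each library separately with findPeaks (size 200 bp, FDR 0.001, 4-fold over the local 10 kb, no input). The deposited signal is the tag count of a peak scaled to 10 M tags, and the deposited findPeaks score, which was not used, is its unscaled peak score. A region without a called peak has no value. Peaks overlapping by at least 1 bp were merged, and genes came from RefSeq GRCm38.p6. Regions with a peak in every library of both groups were compared with limma 3.58.1 (R 4.3.3) on log2(signal + 1), centred on each library's median, with Benjamini-Hochberg adjustment over all regions tested and a threshold of 0.05. Fold changes are on this scale and understate changes of low regions. The values used are scaled and not whole counts, so no count model was run. The fit was tested on simulated data.

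Members and gene lists were chosen with earlier results of these data known. The regions named in each comparison were up to 8 by size of change, at most 2 per gene, and the pathway regions up to 3 per list. The Ifit3, Oas3 and Irf1 promoters, the Irf1 region 18459 bp away, the Oasl1 region in TIM4- knockouts, the Usp18 region and the regions next to Ifit1 and Isg15 were added after their values were seen. So were the higher Parp14 regions, the lower Gbp5 region at 24 h and the centred values of Psmb8, Gbp7, Irf9 and Gbp2 in other control groups. Alternatives were a pseudocount of 5, no centring, quantile normalisation, a fit to all libraries of the experiment, peaks of at least 15, other merging and distance limits, a replicate block and leaving out each library.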

Additional observations from a re-analysis of the deposited data

How the results depend on the processing

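No called region of the 116 over the 9 comparisons reversed its direction under any alternative that was run. Of 889 values under other settings 785 kept their call and 104 lost it, and of 483 values with 1 library left out 292 kept it and 191 lost it. In all fits with a library left out, 37 of the 116 regions were called. Where a group is left with 1 library, that library is assumed to vary like the others. Counts of called regions in the main setting moved by over 1.5 times as follows, and the cause was not tested. With a fit to all libraries of the experiment the count was 12 in place of 24 for Kupffer cells against 48 h RLMs, 3 in place of 5 for TIM4+ Nr1h3 knockouts against controls and 7 in place of 13 for TIM4- knockouts. Without centring the last 2 were 1 and 39, and TIM4- against TIM4+ knockouts gave 70 in place of 1. With quantile normalisation the 3 Nr1h3 counts were 2, 6 and 0. With peaks of at least 15 they were 3 and 7 against controls, and 0 for the libraries titled Smad4. With a pseudocount of 5, TIM4+ knockouts against controls gave 2 and TIM4- against TIM4+ gave 2, and with genes within 10 kb the latter gave 0.

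With 1 library left out the counts ran from 6 to 24 for 24 h RLMs against monocytes, 0 to 8 for 48 h against 24 h, 9 to 29 for Kupffer cells against 48 h RLMs and 38 to 43 against monocytes. They ran from 1 to 5 for TIM4+ and 4 to 8 for TIM4- knockouts against controls, 0 to 3 between the knockouts, 0 to 2 for the libraries titled Smad4 and 0 to 3 for DLL4. Same-numbered libraries did not deviate together (r = 0.009, -0.004, 0.061 and -0.038). Each value rests on 1 difference between libraries per group, in which technical noise can hide a shared mouse. Whether the numbers pair libraries therefore remains undecided. With the replicate block the counts were 6 for TIM4+ and 13 for TIM4- knockouts against controls, 2 between the knockouts and 4 for DLL4. Of the called regions, the block ended the call of 1, the Irf1 region 40315 bp away in TIM4- knockouts (adjusted p = 0.054), and no other. Counts of regions with peaks in 1 group alone moved by over 1.5 times in 13 of 54 planned values and in 45 of 76 with a library left out, an alternative added after seeing the data. Depth limits every region called in some libraries only, since a weak peak can miss the caller's threshold.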
